A study of Mus musculus with 8 samples.

Results

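The genes described here are 5 CXC chemokines, Cxcl1, Cxcl2, Cxcl9, Cxcl10 and Cxcl16, taken by symbol from the 15521 genes of a bulk RNA-seq table of mouse alveolar macrophages. The cells came from bronchoalveolar lavage, were purified by letting them adhere for 2 h, and were kept with GM-CSF at 10 ng/ml. Of the 4 groups, Poly(I:C) with MSDC received 10 µM MSDC for 2 h and then Poly(I:C) at 5 µg/ml; Poly(I:C) with vehicle received DMSO and then the same Poly(I:C); MSDC alone received 10 µM MSDC and no Poly(I:C); and vehicle alone received DMSO and no Poly(I:C). Each group had 2 libraries, and stimulation lasted 24 h by the sample labels and overnight by the series description. Poly(I:C) is a synthetic double-stranded RNA that cells sense as they would a virus. MSDC begins the code names of several compounds that bind the carrier bringing pyruvate into mitochondria, and which of them was added is not stated. Nothing says that replicate libraries are from different animals or cultures, so the p-values below cover only the spread between libraries, which may be technical.

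CXC chemokines are small secreted proteins that steer leukocytes by binding seven-helix receptors. In mice Cxcl1 and Cxcl2 attract neutrophils through Cxcr2, and their genes are classic targets of NF-kB. Cxcl9 and Cxcl10 attract activated T cells and natural killer cells through Cxcr3, and their genes are classic targets of interferons, with Cxcl10 also answering NF-kB. Cxcl16 differs from the others in being made as a membrane protein, which Adam10 and Adam17 release, and its receptor is Cxcr6. Alveolar macrophages are the resident phagocytes of the airspaces and one of the cell types that release such signals in a viral infection of the lung.

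The 8 libraries held between 28762425 and 29493223 reads assigned to genes, and a count of 3 corresponded to 0.0991 to 0.106 CPM, counts scaled to library size. Levels are given as TPM, the authors' transcript values scaled by gene length and library size, and differences as log2 fold changes with standard errors (SE) from edgeR's quasi-likelihood test on the deposited counts. A gene was called when its p, adjusted over 11621 tested genes by the Benjamini-Hochberg method, was under 0.05. All 12 alveolar macrophage markers were present, with a summed level of 14500 to 15100 TPM in Poly(I:C) with MSDC, 13600 to 13900 TPM in Poly(I:C) with vehicle, 14800 to 15000 TPM in MSDC alone and 16200 to 16300 TPM in vehicle alone. Of the other cell types' markers, the neutrophil gene Ngp reached at most 0.06 TPM, the T cell gene Cd3g 0.2 TPM and the epithelial genes Sftpc and Sftpb 0.09 TPM, while the epithelial cadherin gene Cdh1 was at 19.6 to 33.3 TPM. The neutrophil list summed to 38.8 to 60.6 TPM over the 4 groups, nearly all of it S100a8 and Mmp8, and the T and NK cell list to 138 to 258 TPM, nearly all of it Cd2. The lung epithelium list summed to 22.8 to 37.2 TPM.

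Poly(I:C) raised Cxcl9 and Cxcl10 in MSDC-treated cells, where Cxcl2 and Cxcl16 were not called. In vehicle-treated cells it raised Cxcl2, Cxcl9, Cxcl10 and Cxcl16, the 4 members that passed the filter on low counts, and Cxcl10 had the highest fold change of these. Cxcl9 and Cxcl10 passed that filter through the groups with Poly(I:C), having 1 to 13 counts per library without it. MSDC itself lowered only Cxcl16 among the 4, both with and without Poly(I:C), and no difference of Cxcl2, Cxcl9 or Cxcl10 between MSDC and vehicle was called. Cxcl1 was too low for the test in every group.

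**Figure D1:**
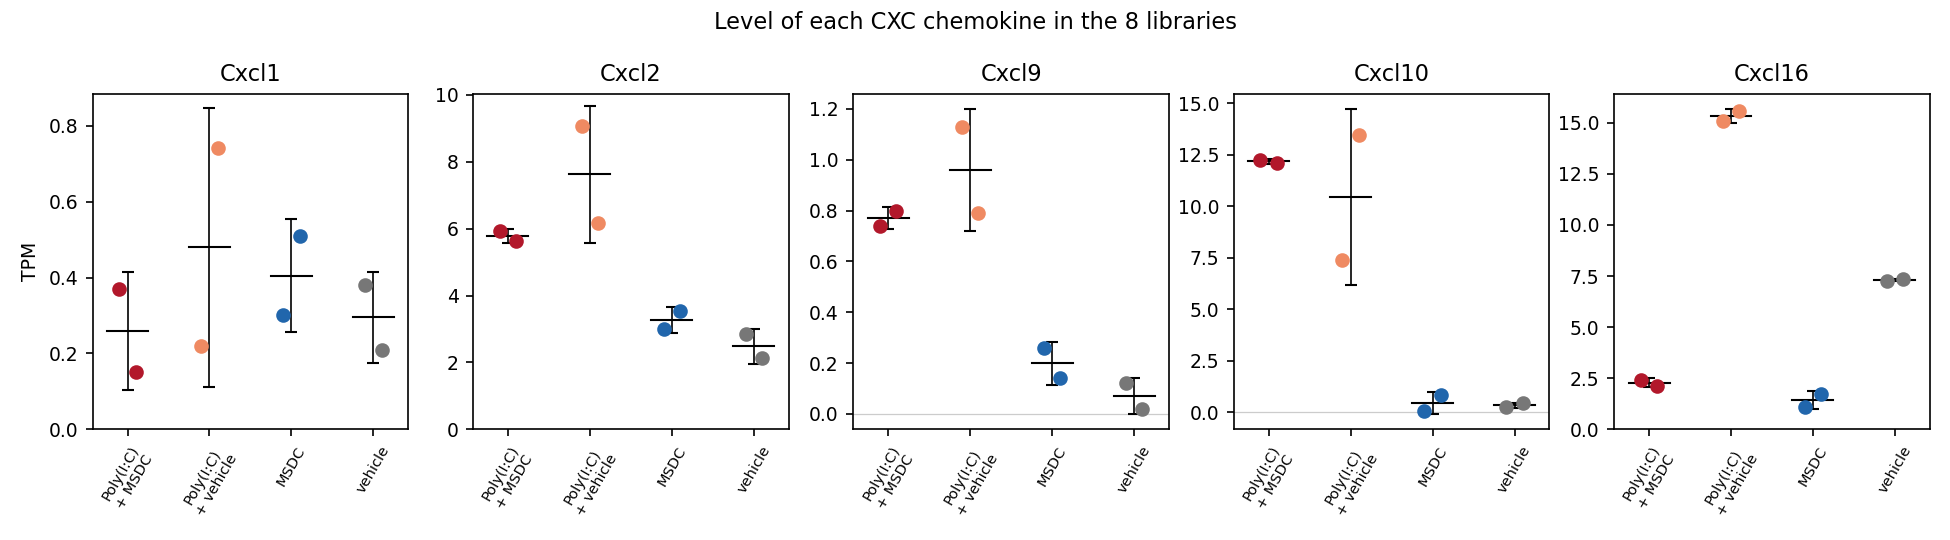
Level of each CXC chemokine in TPM (linear axis, own scale for each gene) in the 8 libraries, with 1 point per library, a bar at the mean of the 2 libraries of a group and whiskers of 1 SD. Cxcl16 was at or below 2.43 TPM in the 4 libraries with MSDC and at or above 7.27 TPM in the 4 without it, whereas Cxcl10 and Cxcl9 separated by Poly(I:C).

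Cxcl1 and Cxcl2 are neighbours on chromosome 5 (GRCm38.p6 in the RefSeq annotation, chr5:90891245-90893121 and chr5:90903899-90905938), and Cxcl3, a close relative that also binds Cxcr2, lies in the same cluster (chr5:90786101-90788093). The 100 bases before each annotated start, all on the + strand, are shown because these 3 related genes differed widely in level in the same cells. The sequences are from RefSeq, 5′ to 3′, with matches to the NF-kB decamer and to TATAAA in capitals, and cover chr5:90891145-90891244, chr5:90903799-90903898 and chr5:90786001-90786100.
Cxcl1: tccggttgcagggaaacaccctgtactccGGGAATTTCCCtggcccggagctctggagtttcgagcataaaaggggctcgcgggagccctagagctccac
Cxcl2: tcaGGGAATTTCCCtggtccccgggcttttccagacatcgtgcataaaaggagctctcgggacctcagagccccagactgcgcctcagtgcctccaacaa
Cxcl3: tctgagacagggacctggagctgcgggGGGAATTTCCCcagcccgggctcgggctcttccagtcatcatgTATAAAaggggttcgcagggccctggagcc
The same 11 capital letters, a decamer match on each strand shifted by 1 base, stand in all 3. Aligned over the 250 bases before the start, Cxcl2 and Cxcl3 were 58.7% identical, Cxcl1 and Cxcl3 52.7%, and Cxcl1 and Cxcl2 52.0%. Pairs of these 3 with Cxcl9 or Cxcl10 were 44.9 to 51.5% identical, close to the last 2 values. Motifs were searched in windows from 250 bases before to 50 after a start. The decamer, searched on both strands, was found in 4.51% of 32851 such windows in the RefSeq promoter table, and TATAAA in 13.6%. A match describes the letters and is not evidence of binding.

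Cxcl1 (gene ID 14825), a main neutrophil attractant in mice, had 0.37 and 0.15 TPM in Poly(I:C) with MSDC, 0.22 and 0.74 TPM in Poly(I:C) with vehicle, 0.30 and 0.51 TPM in MSDC alone, and 0.38 and 0.21 TPM in vehicle alone. These values rest on 2 to 10 counts per library, and the 4 groups overlap. The gene did not pass the filter on low counts. Tested without that filter, among 14928 genes, its log2 difference between Poly(I:C) with vehicle and vehicle alone was 0.74 (SE 1.1, edgeR adjusted p = 0.79), so a change of this size was not detectable at this depth. No order of the groups can be read from these levels.

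Cxcl2 (gene ID 20310) had 5.92 and 5.63 TPM in Poly(I:C) with MSDC, 9.06 and 6.18 TPM in Poly(I:C) with vehicle, 3 and 3.54 TPM in MSDC alone, and 2.85 and 2.12 TPM in vehicle alone. All 4 libraries with Poly(I:C) were above all 4 without it. In MSDC-treated cells the log2 difference after Poly(I:C) was 0.83 (SE 0.26, 95% interval 0.27 to 1.39, edgeR adjusted p = 0.0853), which was not called although the groups did not overlap. In vehicle-treated cells Poly(I:C) raised Cxcl2 by 1.69 (SE 0.27, interval 1.12 to 2.26, 3.22-fold, edgeR adjusted p = 0.0004). The outcome in MSDC-treated cells turned on the method: a call was made without the low-count filter (0.82, adjusted p = 0.0254), with only the 2 groups compared in the fit (0.82, adjusted p = 0.038) and by limma on log2(TPM + 1) (0.67, adjusted p = 0.0463). The groups ordered, highest first, as Poly(I:C) with vehicle at 7.62 ± 2.04 TPM, Poly(I:C) with MSDC at 5.78 ± 0.205 TPM, MSDC alone at 3.27 ± 0.382 TPM and vehicle alone at 2.49 ± 0.516 TPM (SD, n = 2 each). The first and second differed by less than the SD of the first, and the MSDC difference was not called with Poly(I:C) (-0.43, SE 0.24, adjusted p = 0.216) or without it (0.43, SE 0.29, adjusted p = 0.352, both edgeR).

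Cxcl3 is not among the 5 but is set beside them as the most abundant CXC ligand by mean TPM in 3 of the 4 groups, Pf4 being higher in vehicle alone. It had 30.74 and 37.61 TPM in Poly(I:C) with MSDC and 47.32 and 40.93 TPM in Poly(I:C) with vehicle. It had 27.29 and 21.36 TPM in MSDC alone and 22.29 and 18.12 TPM in vehicle alone. In MSDC-treated cells Poly(I:C) raised it by 0.50 (SE 0.14, edgeR adjusted p = 0.0491), a call lost in 7 alternatives, among them limma on log2(TPM + 1) (adjusted p = 0.0939) and the fits without MSDC replicate 2 (adjusted p = 0.494) or without Poly(I:C) with MSDC replicate 2 (adjusted p = 0.44). In vehicle-treated cells it was raised by 1.20 (SE 0.14, edgeR adjusted p = 1.99e-05).

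Cxcl9 and Cxcl10 lie close to each other on the reverse strand of chromosome 5 (GRCm38.p6, chr5:92321331-92328079 and chr5:92346638-92348889). The 250 bases before each start are shown because both genes moved with Poly(I:C) in each background. They are from RefSeq, on the - strand, 5′ to 3′, at chr5:92328080-92328329 and chr5:92348890-92349139, with matches to the NF-kB decamer, the core of the interferon-stimulated response element (GAAA, any 2 bases, GAAA, searched on both strands) and TATAAA in capitals.
Cxcl9: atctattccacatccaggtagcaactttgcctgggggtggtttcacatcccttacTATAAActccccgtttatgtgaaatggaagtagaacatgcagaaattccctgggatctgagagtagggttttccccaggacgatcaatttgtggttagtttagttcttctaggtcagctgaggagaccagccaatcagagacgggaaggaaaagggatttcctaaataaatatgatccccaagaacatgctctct
Cxcl10: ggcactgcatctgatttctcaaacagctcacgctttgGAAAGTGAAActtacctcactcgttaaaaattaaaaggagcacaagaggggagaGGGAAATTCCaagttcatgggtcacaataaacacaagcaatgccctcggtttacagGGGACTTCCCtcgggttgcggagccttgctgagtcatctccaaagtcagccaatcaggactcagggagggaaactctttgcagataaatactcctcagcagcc
The Cxcl10 window held 1 match to the interferon element core, at -213 to -204 from the start, and 2 to the NF-kB decamer, at -159 to -150 and -103 to -94. The Cxcl9 window held TATAAA at -195 to -190, and neither the decamer, the interferon element core nor the gamma-activated site TTCNNNGAA was found in it, which says only that these letters are not in this window. Of the 32851 windows, 3.44% held the interferon element core and 8.3% the gamma-activated site. Aligned over the 250 bases before the start, Cxcl9 and Cxcl10 were 51.5% identical.

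**Figure D2:**
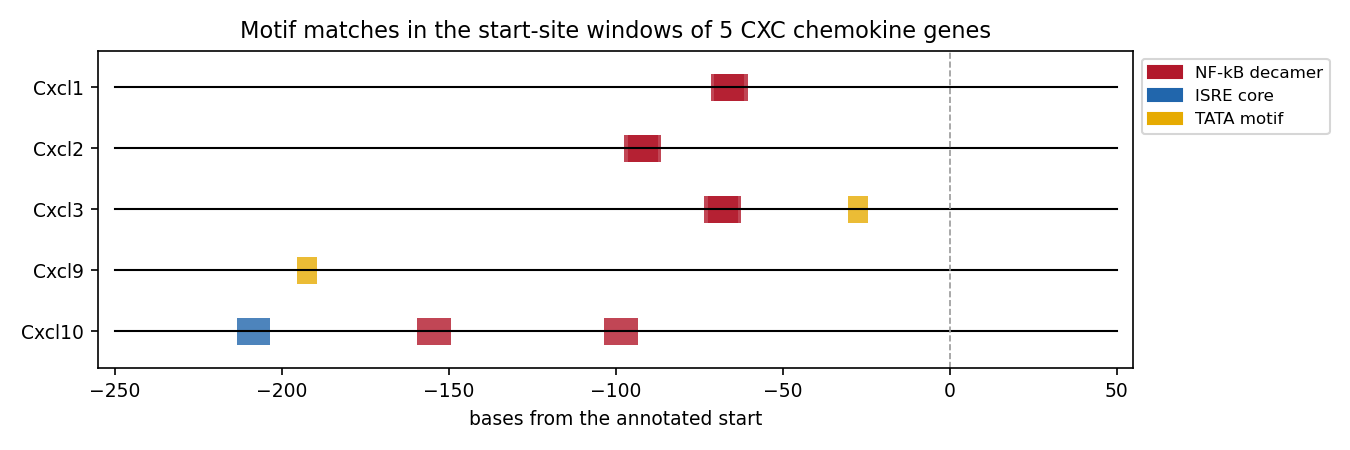
Motif matches (coloured boxes) in the windows around the annotated starts of Cxcl1, Cxcl2, Cxcl3, Cxcl9 and Cxcl10, drawn to scale in bases from the start (dashed line) from RefSeq GRCm38.p6. The decamer lies at -71 to -61 in Cxcl1, -97 to -87 in Cxcl2 and -73 to -63 in Cxcl3, and only Cxcl10 of these 5 holds the interferon element core.

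Cxcl10 (gene ID 15945) had 12.27 and 12.09 TPM in Poly(I:C) with MSDC, 7.41 and 13.48 TPM in Poly(I:C) with vehicle, 0.06 and 0.81 TPM in MSDC alone, and 0.26 and 0.43 TPM in vehicle alone. The 4 libraries with Poly(I:C) were all far above the 4 without it, and within each pair the MSDC and vehicle libraries overlapped. Poly(I:C) raised it by 4.77 on the log2 scale in MSDC-treated cells (SE 0.47, 95% interval 3.77 to 5.77, 27.3-fold, edgeR adjusted p = 2.94e-06). In vehicle-treated cells it raised Cxcl10 by 4.95 (SE 0.50, interval 3.89 to 6.0, 30.8-fold, edgeR adjusted p = 2.93e-06). The size in MSDC-treated cells depends on 2 libraries of 1 and 13 counts: it was between 3.90 and 7.40 when 1 library was left out, the extremes coming without MSDC replicate 1 and without MSDC replicate 2. Cxcl10 lies within the RefSeq span of Art3, which reached at most 0.05 TPM, and no source used here says whether counting was by strand. Of all tested genes it ranked 56 from the highest fold change in MSDC-treated cells and 55 in vehicle-treated cells. The difference between MSDC and vehicle was 0.19 with Poly(I:C) (SE 0.30, interval -0.44 to 0.82, edgeR adjusted p = 0.703), and 0.37 without it (SE 0.86, interval -1.47 to 2.20, adjusted p = 0.824). By mean TPM the order was Poly(I:C) with MSDC at 12.2 ± 0.127, Poly(I:C) with vehicle at 10.4 ± 4.29, MSDC alone at 0.435 ± 0.53 and vehicle alone at 0.345 ± 0.12 (SD, n = 2 each), where neither the first pair nor the last differed beyond its spread.

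Cxcl9 (gene ID 17329), the other Cxcr3 ligand measured, was far lower: 0.74 and 0.80 TPM in Poly(I:C) with MSDC, 1.13 and 0.79 TPM in Poly(I:C) with vehicle, 0.26 and 0.14 TPM in MSDC alone, and 0.12 and 0.02 TPM in vehicle alone. It had 32 and 34 counts in Poly(I:C) with MSDC, 50 and 34 in Poly(I:C) with vehicle, 11 and 6 in MSDC alone and 5 and 1 in vehicle alone. Libraries with Poly(I:C) did not overlap those without. Poly(I:C) raised it by 1.97 in MSDC-treated cells (SE 0.52, 95% interval 0.87 to 3.08, edgeR adjusted p = 0.0323) and by 3.81 in vehicle-treated cells (SE 0.61, interval 2.51 to 5.10, edgeR adjusted p = 0.000444). The call in MSDC-treated cells was lost when any 1 of the 4 libraries it compares was left out, with adjusted p of 0.083 and 0.301 without MSDC replicate 1 and 2 and of 0.124 and 0.172 without Poly(I:C) with MSDC replicate 1 and 2. The value in vehicle-treated cells was 5.30 without vehicle replicate 1 and 3.08 without vehicle replicate 2. On log2(TPM + 1), which understates changes of so low a gene, limma gave 0.56 in MSDC-treated and 0.87 in vehicle-treated cells. MSDC and vehicle did not differ past the threshold with Poly(I:C) (-0.35, SE 0.42, edgeR adjusted p = 0.602) or without it (1.49, SE 0.78, adjusted p = 0.206). In TPM the groups ordered as Poly(I:C) with vehicle at 0.96 ± 0.24, Poly(I:C) with MSDC at 0.77 ± 0.0424, MSDC alone at 0.20 ± 0.0849 and vehicle alone at 0.07 ± 0.0707 (SD, n = 2 each), where the first and second differed by less than the SD of the first and the third and the fourth were not called.

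Cxcl16 (gene ID 66102) lies on chromosome 11 (GRCm38.p6, chr11:70454389-70459984), away from the other 4. The higher-coordinate side of its span overlaps Zmynd15, which reached at most 0.3 TPM. Cxcl16 had 2.43 and 2.12 TPM in Poly(I:C) with MSDC, 15.08 and 15.59 TPM in Poly(I:C) with vehicle, 1.11 and 1.73 TPM in MSDC alone, and 7.27 and 7.34 TPM in vehicle alone. None of the 4 groups overlapped another, and both MSDC groups were below both groups without it. MSDC lowered Cxcl16 by -2.71 on the log2 scale with Poly(I:C) (SE 0.15, 95% interval -3.04 to -2.39, 6.55-fold, edgeR adjusted p = 1.85e-09). Without Poly(I:C) the difference was -2.24 (SE 0.17, interval -2.61 to -1.88, 4.74-fold, edgeR adjusted p = 6.87e-08). From the lowest fold change of all tested genes it ranked 58 with Poly(I:C) and 109 without. Since these are bulk libraries, fewer cells that make a transcript and less of it per cell cannot be told apart.

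After Poly(I:C) the log2 difference of Cxcl16 in MSDC-treated cells was 0.65 (SE 0.20, 95% interval 0.23 to 1.07, edgeR adjusted p = 0.0697) and was not called, except without the low-count filter (0.65, adjusted p = 0.048). In vehicle-treated cells Poly(I:C) raised it by 1.12 (SE 0.13, interval 0.84 to 1.40, 2.17-fold, edgeR adjusted p = 1.83e-05). Cxcl16 after Poly(I:C) with MSDC (2.28 ± 0.219 TPM) lay below that in vehicle alone (7.30 ± 0.0495 TPM; SD, n = 2 each). These 2 groups differ in both treatments and were not tested against each other. The summed levels of several other cell types' markers were also lower with MSDC, a description with no test. The neutrophil list summed to 38.8 to 55.8 TPM in Poly(I:C) with MSDC and 58.7 to 60.6 TPM in Poly(I:C) with vehicle. It summed to 43.1 to 53.6 TPM in MSDC alone and 55.6 to 57.6 TPM in vehicle alone. Sums of the lung epithelium list were 22.8 to 23.0, 23.1 to 24.4, 27.6 to 30.6 and 34.9 to 37.2 TPM in that order. The B cell list, at most 0.16 TPM, and the fibroblast list, at most 0.4 TPM, overlapped between MSDC and vehicle. Of the monocyte and recruited macrophage list, 6 of 7 were measured, and they summed to 1.12 to 1.47 TPM in Poly(I:C) with MSDC, 4.05 to 4.25 TPM in Poly(I:C) with vehicle, 0.79 to 1.1 TPM in MSDC alone and 3.55 to 3.69 TPM in vehicle alone. Among them Ly6c2 was between 0 and 0.61 TPM, Ccr2 between 0.36 and 2.28 TPM and Cx3cr1 between 0 and 0.06 TPM. The dendritic cell list, with 6 of 6 measured, summed to 3.98 to 4.67 TPM in Poly(I:C) with MSDC, 6.84 to 8.47 TPM in Poly(I:C) with vehicle, 2.79 to 3.1 TPM in MSDC alone and 4.75 to 5.66 TPM in vehicle alone. Clec9a, at 1.55 to 7.05 TPM, was the highest of this list in every library. Zbtb46 reached at most 1.28 TPM, Ccr7 0.5, Cd209a 0.27, Xcr1 0.1 and Flt3 0.04 TPM. The T and NK cell list, with 6 of 10 measured and 3 of these at 0 within each group, summed to 138 to 144, 234 to 239, 169 to 174 and 251 to 258 TPM in the same order of groups. Nearly all of it was Cd2, at 138 to 258 TPM, and Cd3g, the next highest, reached at most 0.2 TPM. The endothelium list, with 4 of 5 measured, summed to 0.58 to 0.71, 1.49 to 1.69, 0.37 to 0.65 and 1.01 to 1.77 TPM. In it Cdh5 was at 0.28 to 1.6 TPM, while Ramp2 reached at most 0.33, Pecam1 0.2 and Kdr 0.03 TPM. The part of these cell types in the Cxcl16 difference was not tested. TPM per CPM of Cxcl16 ranged from 0.806 to 0.958 over the 8 libraries, wider than the 1.83 to 1.95 of Cxcl2, so its TPM and counts do not follow each other exactly.

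**Figure D3:**
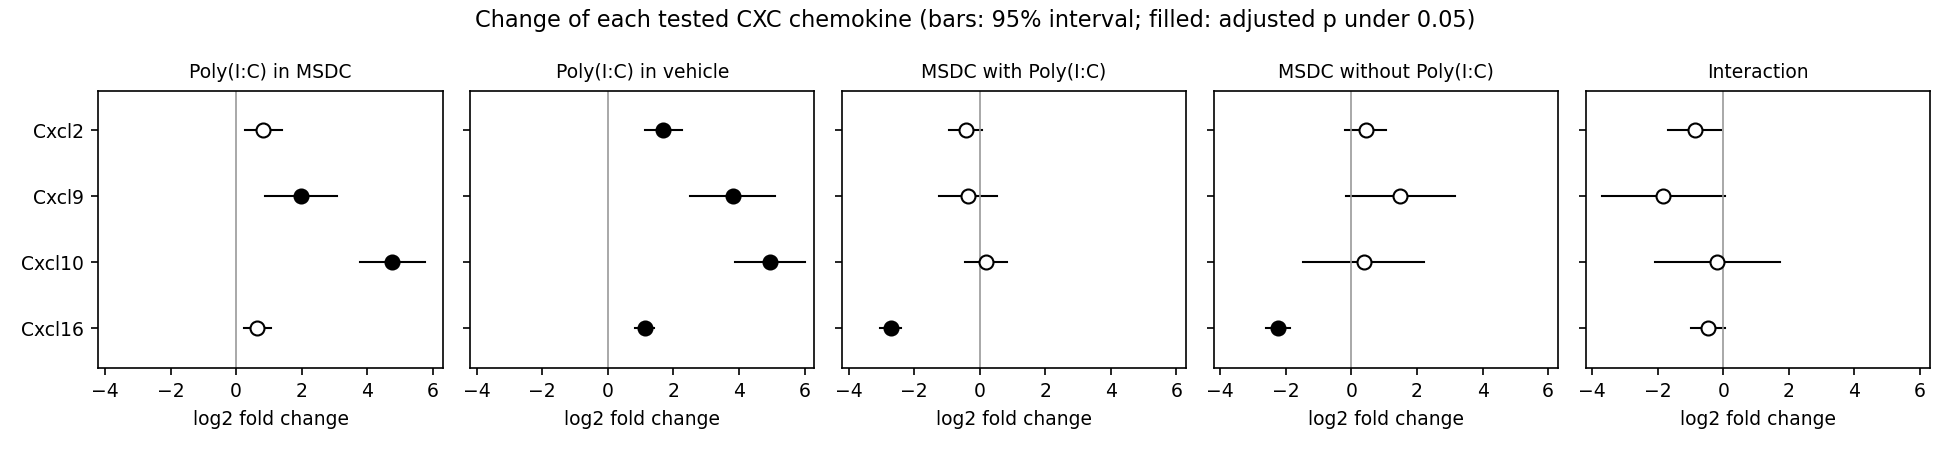
Log2 fold change of Cxcl2, Cxcl9, Cxcl10 and Cxcl16 in the 5 comparisons, from edgeR, with bars for the 95% interval and filled points for adjusted p under 0.05. Cxcl9 and Cxcl10 are filled for Poly(I:C) in MSDC, all 4 for Poly(I:C) in vehicle, Cxcl16 alone for MSDC against vehicle, and none for the interaction.

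Counted over the members, 2 of 4 tested were called higher after Poly(I:C) in MSDC-treated cells, where 6.32% of all tested genes were called, 4.82% higher and 1.5% lower. Without any 1 of the 4 libraries compared the count was 1, and without the low-count filter it was 4. In vehicle-treated cells 4 of 4 were called higher, where 11.6% of all tested genes were called, 7.52% higher and 4.10% lower. Since Cxcl9 and Cxcl10 passed the filter only through the groups with Poly(I:C), and Cxcl1 did not pass it, these Poly(I:C) counts over the 4 depend in part on the change itself and are given as a description. For MSDC against vehicle, 1 of 4 was called lower with Poly(I:C), where 26.1% of all tested genes were called, 12.5% higher and 13.6% lower. Without Poly(I:C) 1 of 4 was called lower too, where 23.5% of all tested genes were called, 11.1% higher and 12.4% lower. The single gene is Cxcl16 in both, and over so few members the share is not set apart from the background.

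Whether the response to Poly(I:C) itself differed with MSDC was tested by the interaction, the response in MSDC-treated cells minus that in vehicle-treated cells. For Cxcl2 it was -0.86 (SE 0.38, 95% interval -1.67 to -0.06, unadjusted p = 0.0376, edgeR adjusted p = 0.729), for Cxcl9 -1.84 (interval -3.71 to 0.04, adjusted p = 0.778), for Cxcl16 -0.47 (interval -0.98 to 0.05, adjusted p = 0.82), and for Cxcl10 -0.18 (interval -2.07 to 1.72, adjusted p = 0.995). None of the 4 was called by edgeR, DESeq2 or limma, and in edgeR 0.224% of all tested genes were called, 0.120% higher and 0.103% lower. Of the 4, 1 had an unadjusted p under 0.05 in edgeR, with a lower response. At that threshold 373 of all 11621 tested genes had a higher response and 383 a lower one. The intervals are wide: that of Cxcl10 holds both a lower and a higher response with MSDC. A smaller response of Cxcl2, Cxcl9 or Cxcl16 with MSDC is therefore not shown, though each estimate is below 0.

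The mixture of CXC ligand transcripts changed with these differences. Of the 14 CXC ligand genes with a row, Cxcl3, Pf4 (platelet factor 4), Cxcl14, Cxcl2, Cxcl10 and Cxcl16 made up nearly all transcripts, Cxcl17 was listed at 0 throughout, and Cxcl5, Cxcl12, Cxcl13, Cxcl15 and Ppbp stayed at or below 0.19 TPM. The summed level was 77.8 ± 1.7 TPM in Poly(I:C) with MSDC, 110 ± 2.12 TPM in Poly(I:C) with vehicle, 45.5 ± 3.46 TPM in MSDC alone and 57.9 ± 4.81 TPM in vehicle alone (SD, n = 2 each). The 5 members gave 21.2 ± 0.636, 34.8 ± 2.76, 5.73 ± 1.41 and 10.5 ± 0.566 TPM of these sums in the same order of groups.

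Cxcl16 held 3.17% and 2.68% of CXC ligand TPM in Poly(I:C) with MSDC, 13.4% and 14.3% in Poly(I:C) with vehicle, 2.32% and 4.03% in MSDC alone, and 11.9% and 13.5% in vehicle alone. Both MSDC groups were below both groups without it, and within MSDC or within vehicle the libraries with and without Poly(I:C) overlapped. Cxcl10 held 16% and 15.3% in Poly(I:C) with MSDC, 6.61% and 12.4% in Poly(I:C) with vehicle, 0.125% and 1.89% in MSDC alone, and 0.424% and 0.788% in vehicle alone. Its share followed Poly(I:C), and both libraries of Poly(I:C) with MSDC were above both of Poly(I:C) with vehicle. These shares are descriptions, since a share of TPM falls when another ligand rises.

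**Figure D4:**
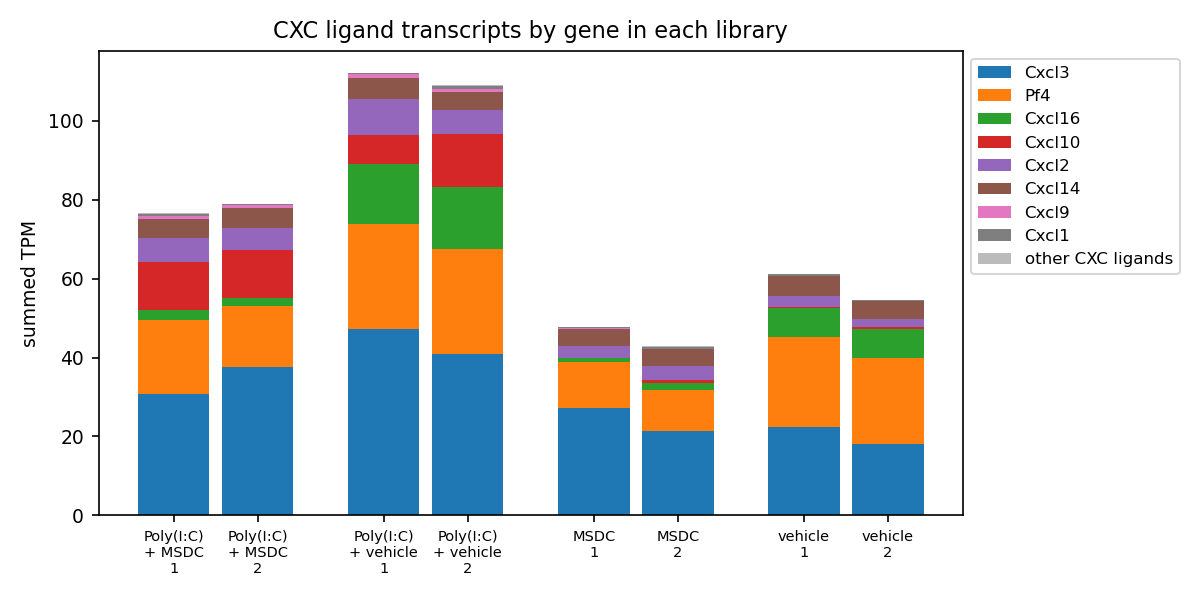
Summed TPM of the CXC ligand genes in each of the 8 libraries (linear axis from 0), stacked by gene. Cxcl3 and Pf4 form the base of every bar, Cxcl10 is visible mainly in the 4 libraries with Poly(I:C), and Cxcl16 is thin in the 4 libraries with MSDC.

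Among 9 other CXC ligands with a row, 3 passed the filter. Of these, 2 were called higher after Poly(I:C) in MSDC-treated cells and 1 in vehicle-treated cells, and 2 were called lower with MSDC in the presence of Poly(I:C) and 1 without it, with medians of 0.50, 0.33, -0.40 and -0.17 beside 0.00 for all tested genes. Over all tested genes 4.82% and 7.52% were called higher in these Poly(I:C) comparisons and 13.6% and 12.4% lower in these MSDC comparisons. The 2 called in MSDC-treated cells became 0 or 1 in 9 alternatives, with 0 without MSDC replicate 2 or Poly(I:C) with MSDC replicate 1. Pf4 was called higher after Poly(I:C) in MSDC-treated cells (0.66, SE 0.17, edgeR adjusted p = 0.0328), a call lost by DESeq2 (adjusted p = 0.0673) and without MSDC replicate 1 (0.121), MSDC replicate 2 (0.266) or Poly(I:C) with MSDC replicate 1 (0.27). Pf4 was also called lower with MSDC, by -0.67 with Poly(I:C) (SE 0.16, edgeR adjusted p = 0.00471) and by -1.0 without it (SE 0.17, adjusted p = 0.00033), and the call with Poly(I:C) was lost without Poly(I:C) with MSDC replicate 2 (adjusted p = 0.069). Cxcl3 was called lower with MSDC in the presence of Poly(I:C) (-0.40, SE 0.14, edgeR adjusted p = 0.0395), a call lost with limma and without Poly(I:C) with vehicle replicate 1 (adjusted p = 0.25) or Poly(I:C) with MSDC replicate 1 (adjusted p = 0.322). Without Poly(I:C) it was not called (0.30, SE 0.15, edgeR adjusted p = 0.183), and its interaction of -0.70 (interval -1.13 to -0.27, adjusted p = 0.367) was not called either, except without the low-count filter (adjusted p = 0.0095). Cxcl14, a ligand made by many epithelia, was not called in any of the 5 comparisons.

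The receptors of the 5 members were hardly present. Cxcr2, the receptor of Cxcl1 and Cxcl2, had 0.29 and 0.27 TPM in Poly(I:C) with MSDC, 0.91 and 0.37 TPM in Poly(I:C) with vehicle, 0.16 and 0.45 TPM in MSDC alone, and 0.73 and 0.73 TPM in vehicle alone. Cxcr3, the receptor of Cxcl9 and Cxcl10, reached at most 0.13 TPM, and Cxcr6, the receptor of Cxcl16, at most 0.21 TPM. Cxcr5 reached at most 0.35 TPM, and Ackr3 is not analysed here. Of the 3 receptors that passed the filter, Cxcr1, Cxcr2 and Cxcr4, none was called after Poly(I:C). That was so by edgeR over all 8 libraries with the filter, by DESeq2 and by limma. In edgeR 6.32% of all tested genes were called in MSDC-treated and 11.6% in vehicle-treated cells. At an unadjusted p under 0.05 in edgeR there were 0 of the 3 in MSDC-treated and 1 in vehicle-treated cells. All 11621 tested genes gave 1130 higher and 777 lower in MSDC-treated cells, and 1568 higher and 1242 lower in vehicle-treated cells. Over so few receptors these counts are not set apart from the background. In vehicle-treated cells edgeR called Cxcr1 without the filter (0.26, adjusted p = 0.0144) and without vehicle replicate 1 (0.38, adjusted p = 0.00885).

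Cxcr1 and Cxcr4 were abundant. Cxcr4, the receptor of Cxcl12, had 39.02 and 40.64 TPM in Poly(I:C) with MSDC, 91.15 and 89.54 TPM in Poly(I:C) with vehicle, 39.75 and 36.19 TPM in MSDC alone, and 92.82 and 79.46 TPM in vehicle alone. MSDC lowered it by -1.22 with Poly(I:C) (SE 0.08, edgeR adjusted p = 9.19e-09) and by -1.15 without it (SE 0.08, adjusted p = 1.94e-08). Cxcr1 was called higher with MSDC without Poly(I:C) (0.43, SE 0.09, edgeR adjusted p = 0.00265), except when MSDC replicate 1 was left out (adjusted p = 0.0571).

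Of 18 tested genes of interferon signalling, the pathway upstream of Cxcl9 and Cxcl10, 8 were called higher after Poly(I:C) in MSDC-treated cells and 11 in vehicle-treated cells, and none lower. For MSDC against vehicle, 10 were called lower with Poly(I:C) and 13 without it, and none higher. Over all tested genes, 4.82% and 7.52% were called higher in these Poly(I:C) comparisons and 13.6% and 12.4% lower in these MSDC comparisons. The medians over the 18 were 0.19, 0.29, -0.31 and -0.42 in these 4 comparisons, beside 0.00 for all tested genes. Irf7, the transcription factor that amplifies type I interferon, had 439.62 and 496.40 TPM in Poly(I:C) with MSDC, 998.54 and 999.28 TPM in Poly(I:C) with vehicle, 1.86 and 4.49 TPM in MSDC alone, and 17.46 and 6.87 TPM in vehicle alone. MSDC lowered it by -1.12 with Poly(I:C) (SE 0.20, edgeR adjusted p = 0.000579), a call that DESeq2 (adjusted p = 0.185) and limma on log2(TPM + 0.1) (adjusted p = 0.0745) did not make. Cxcl10 was not called between the same groups (0.19, 95% interval -0.44 to 0.82, edgeR adjusted p = 0.703), an interval that holds both a lower and a higher level.

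Irf1, an activator that binds interferon elements, rose after Poly(I:C) by 0.95 in MSDC-treated and 1.03 in vehicle-treated cells (edgeR adjusted p = 3.42e-07 and 9.06e-08) and was not called for MSDC. Cxcl10 was likewise called for Poly(I:C) in both backgrounds and not for MSDC. Irf9, a DNA-binding factor of the type I interferon response, had 80.74 and 76.81 TPM in Poly(I:C) with MSDC, 80.79 and 85.47 TPM in Poly(I:C) with vehicle, 9.65 and 11.49 TPM in MSDC alone, and 29.23 and 20.25 TPM in vehicle alone. It was the single gene of this list called for the interaction (1.10, SE 0.18, edgeR adjusted p = 0.0134). Also called lower with MSDC were Irf5 (-1.89 with Poly(I:C) and -2.12 without), an activator of inflammatory genes, and Socs3 (-1.65 and -1.70), a feedback inhibitor of cytokine receptors, each with an edgeR adjusted p at or below 1.04e-09. Ifnb1, the gene of interferon beta, was at 0.28 TPM in Poly(I:C) with vehicle replicate 2 and listed at 0 in the other 7 libraries.

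Of 20 genes of NF-kB signalling and the receptors and cytokines around it, 1, Tlr3, was called higher after Poly(I:C) in MSDC-treated cells and 8 in vehicle-treated cells. MSDC lowered 7 and raised 1 with Poly(I:C), and lowered 5 and raised 5 without it. Over all tested genes, 4.82% were called higher after Poly(I:C) in MSDC and 7.52% in vehicle, and with MSDC 13.6% were called lower and 12.5% higher in the presence of Poly(I:C) and 12.4% and 11.1% without it. The medians over the 20 were 0.00, 0.17, -0.18 and -0.01. By limma on log2(TPM + 1), 5 in place of 8 were called for Poly(I:C) in vehicle and 6 in place of 10 for MSDC without Poly(I:C). Leaving out 1 library moved these counts too: the 8 for MSDC with Poly(I:C) dropped to 5 when replicate 2 of either Poly(I:C) group was left out, and the 10 without Poly(I:C) became 5 and 4 without MSDC replicate 1 and 2. The 8 for Poly(I:C) in vehicle dropped to 5 when either library of its Poly(I:C) group or vehicle replicate 2 was left out, and the 1 for Poly(I:C) in MSDC became 2 without Poly(I:C) with MSDC replicate 1 or either vehicle replicate. Tlr3, the endosomal receptor of double-stranded RNA, rose by 1.87 in both backgrounds (SE 0.13 in MSDC and 0.12 in vehicle, edgeR adjusted p = 2.82e-08 and 1.38e-08). Il1b, the gene of interleukin 1 beta, had 4.95 and 7.19 TPM in Poly(I:C) with MSDC, 17.83 and 16.36 TPM in Poly(I:C) with vehicle, 4.4 and 3.3 TPM in MSDC alone, and 6.82 and 5.88 TPM in vehicle alone. Its difference after Poly(I:C) was 0.66 in MSDC-treated cells, not called (SE 0.21, edgeR adjusted p = 0.0977), and in vehicle-treated cells it rose by 1.49 (SE 0.18, adjusted p = 3.17e-05). For Tnf, the gene of tumour necrosis factor, the values were 0.06 in MSDC-treated cells, not called (SE 0.10, edgeR adjusted p = 0.843), and 0.67 in vehicle-treated cells, called (SE 0.10, adjusted p = 0.00014). Nfkbia, which holds NF-kB in the cytoplasm, was called higher with MSDC, by 0.29 with Poly(I:C) and 0.70 without (edgeR adjusted p = 0.0179 and 1.24e-05), and Nfkbie, a related inhibitor, lower, by -1.20 and -0.84 (adjusted p = 2.51e-07 and 1.47e-05). The Nfkbia call with Poly(I:C) was lost without Poly(I:C) with MSDC replicate 1 (adjusted p = 0.054) or 2 (0.125) and without Poly(I:C) with vehicle replicate 1 (0.158). None of these 20 genes was called for the interaction by edgeR over all 8 libraries with the filter, by DESeq2 or by limma. In edgeR 0.224% of all tested genes were called. At an unadjusted p under 0.05 in edgeR, 8 of the 20 had a lower response in MSDC-treated cells. Over all 11621 tested genes, 383 had a lower response and 373 a higher one at that threshold. In edgeR, Tnf was called without the filter (-0.61, adjusted p = 0.0269) and Nfkbia without vehicle replicate 1 (-0.53, adjusted p = 0.0264).

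Among the enzymes known to cut CXC chemokines, Adam10 and Adam17, the sheddases of Cxcl16, were not called in any of the 5 comparisons. Adam10 had 65.51 to 80.26 TPM and Adam17 100.19 to 118.01 TPM over the 8 libraries, many times the level of Cxcl16. Of the 6 tested enzymes, 4 matrix metalloproteinases were called lower with MSDC both with and without Poly(I:C), with medians over the 6 of -1.46 and -1.45, where 13.6% and 12.4% of all tested genes were called lower. After Poly(I:C), 3 were called higher in each background (medians 0.41 in MSDC and 0.29 in vehicle), where 4.82% and 7.52% of all tested genes were. Mmp12 and Mmp13 were called in both, Mmp8 only in MSDC and Mmp14 only in vehicle. The Mmp8 call (1.04) was lost by DESeq2 (adjusted p = 0.19) and by limma on log2(TPM + 1) (adjusted p = 0.124). Its value was 0.78 without MSDC replicate 1 and 0.36 without Poly(I:C) with MSDC replicate 1. The Mmp12 call in vehicle (0.31) was lost by limma on log2(TPM + 1) (adjusted p = 0.108). Mmp12, the macrophage elastase, had 1036.31 and 908.86 TPM in Poly(I:C) with MSDC, 5731.02 and 6087.69 TPM in Poly(I:C) with vehicle, 680.52 and 634.48 TPM in MSDC alone, and 5385.90 and 4549.10 TPM in vehicle alone. MSDC lowered it by -2.63 with Poly(I:C) (SE 0.08, edgeR adjusted p = 1.76e-12) and by -2.89 without (SE 0.08, adjusted p = 5.73e-13). The other 3 were Mmp14 (-2.52 and -1.89), Mmp8 (-1.82 and -2.60) and Mmp13 (-1.10 and -1.02).

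Of 9 tested factors that set the stability of such mRNAs, none was called after Poly(I:C) in either background. This held for edgeR over all 8 libraries with the filter, for DESeq2 and for limma. In edgeR 6.32% of all tested genes were called in MSDC-treated and 11.6% in vehicle-treated cells. An unadjusted p under 0.05 in edgeR was reached by 1 factor in MSDC-treated and 2 in vehicle-treated cells. Over all 11621 tested genes, 1130 higher and 777 lower reached it in MSDC-treated cells, and 1568 higher and 1242 lower in vehicle-treated cells. In edgeR, 1 was called in MSDC-treated cells with only the 2 groups compared in the fit, and 1 in vehicle-treated cells without vehicle replicate 1. MSDC raised 2 and lowered 2 with Poly(I:C), where 12.5% of all tested genes were called higher and 13.6% lower. It raised 1 and lowered 1 without Poly(I:C), where 11.1% and 12.4% were, shares close to those of the list. With Poly(I:C) the shares of the list were larger, but over 9 genes they are not set apart from the background. In place of these 4 calls with Poly(I:C), 2 were made when replicate 1 of either Poly(I:C) group was left out. With MSDC, Zfp36l1, a decay factor that binds AU-rich elements, was called lower by -1.19 with Poly(I:C) (SE 0.10, edgeR adjusted p = 1.59e-07) and by -1.01 without (SE 0.10, adjusted p = 1.12e-06), and its relative Zfp36l2 higher by 0.38 and 0.37 (adjusted p = 0.000252 and 0.00034). Zfp36 itself, known to target Cxcl1 and Cxcl2 transcripts, was not called in any of the 5 comparisons.

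**Figure D5:**
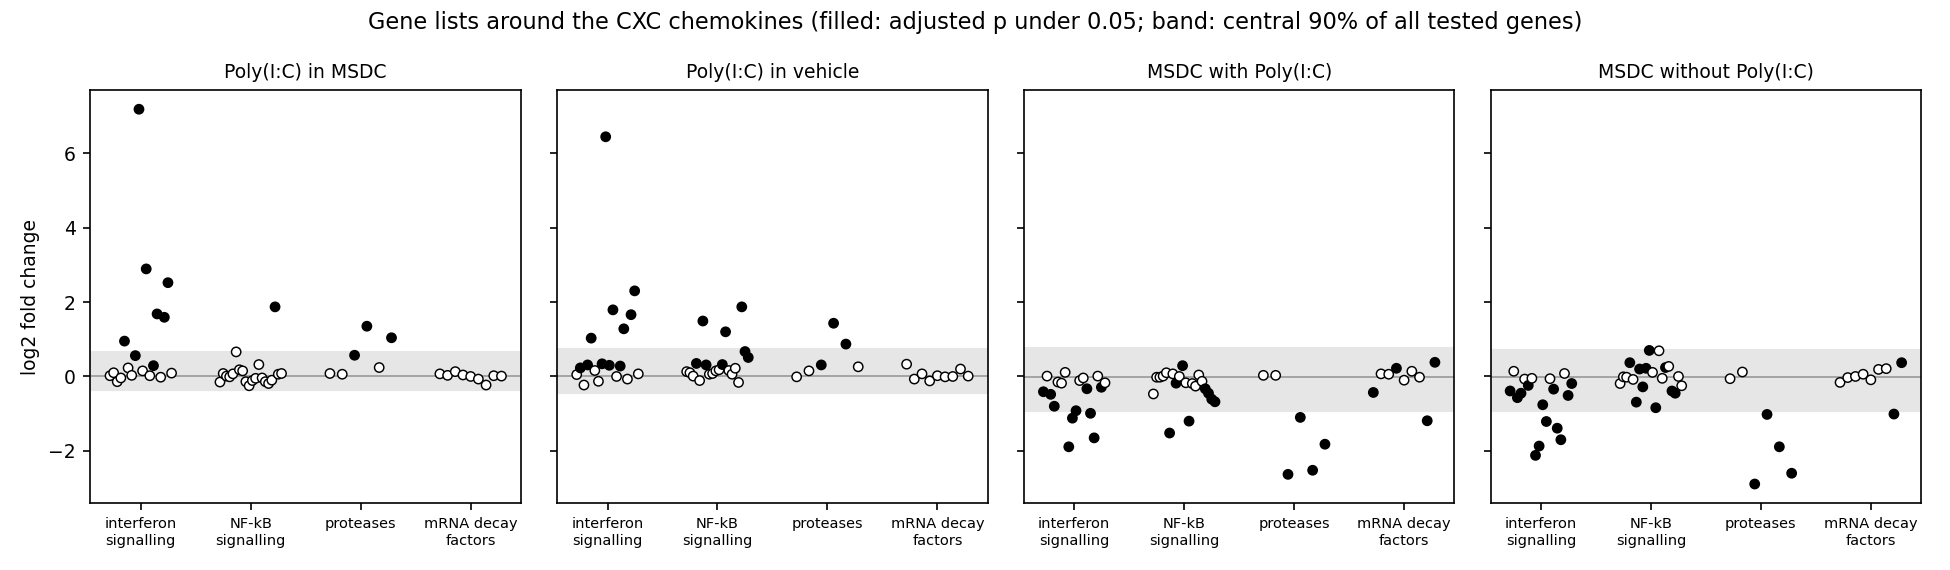
Log2 fold change of each tested gene of 4 lists around the CXC chemokines in 4 comparisons, filled where the edgeR adjusted p was under 0.05, with a grey band over the central 90% of all tested genes. In both Poly(I:C) panels the highest point is Irf7 (7.18 in MSDC, 6.44 in vehicle), and in both MSDC panels the lowest is Mmp12 (-2.63 with Poly(I:C), -2.89 without).

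The genes whose pattern was most like each member were found by the root-mean-square difference of centred log2(CPM + 1) over the 8 libraries, among 8875 or 8876 tested genes with a group mean of at least 5 TPM. For Cxcl16, whose own values varied by 1.09 on this measure, the nearest were AA467197 (0.184), Ccl4 (0.186), a CC chemokine, and Mmp14 (0.193). Ccl4 averaged 23.4 ± 0.127 TPM in Poly(I:C) with MSDC, 99.0 ± 7.82 TPM in Poly(I:C) with vehicle, 11.9 ± 2.84 TPM in MSDC alone and 45.1 ± 7.56 TPM in vehicle alone (SD, n = 2 each), so its 4 groups stand in the same order as those of Cxcl16. For Cxcl10 (1.3) the nearest were Trex1 (0.283), Znfx1 (0.3) and Irgm2 (0.326), and for Cxcl2 (0.477) they were Apobec3 (0.156), Slfn9 (0.156) and Psme2 (0.159). Cxcl9 (0.496) was nearest to Cxcl2 (0.117), Cxcl3 (0.126) and Slfn9 (0.127). Cxcl1 (0.102) was nearest to Armc9, Cbll1 and Aimp2, at 0.0535 to 0.0558, none of which was called in any of the 5 comparisons. Likeness over 8 libraries is a description of these values, since low genes are drawn towards 0 by the added 1.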

How the data were processed

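Bulk RNA-seq of total RNA was made from 8 libraries, 2 in each of 4 groups. Per the submitters' processing notes, TopHat2 2.1.1, Bowtie2 2.3.4, Cuffdiff and the GRCm38 and mm10 builds were used, with no roles given. The authors deposited expected counts (5.95 to 7.19% of values were not whole), TPM and FPKM per gene, and FPKM was not tested. The expected counts were rounded. Genes were filtered with filterByExpr, which kept 11621 of 15521 (575 had no count), scaled by TMM and fitted over the 4 groups with edgeR 4.0.16 in R 4.3.3, leaving 4 residual degrees of freedom. SEs were derived from the F statistic. DESeq2 1.42.0, limma 3.58.1 on log2(TPM + 1) and log2(TPM + 0.1), library totals alone, no filter, 2 groups only, a replicate block and leaving out each library were tried as alternatives. The fit was also run on simulated counts, and the outcome is not reported here. Replicates of a group differed beyond counting noise, with a chi-square per degree of freedom of 4.26 to 14.7. TPM carries no depth, and counting error alone sets a floor of 3 counts.

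The 5 members and the gene lists were chosen with earlier results of these data known. Named genes were the 5 members, their 3 nearest genes by pattern, up to 4 called genes with the smallest p in each list and comparison, and the receptors; Ifnb1, Adam10, Adam17, Zfp36 and Cxcl14 were named besides, after their values were seen. RefSeq promoter windows were found for 4 of the 5 members. Of the gene IDs, 15419 matched RefSeq (GRCm38.p6), the source of all positions, and 23 symbols stored as dates were repaired.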

Additional observations from a re-analysis of the deposited data

Results flagged for a closer look

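The response of Irf9 to Poly(I:C) in MSDC-treated cells minus that in vehicle-treated cells was 1.10 on the log2 scale (SE 0.18, edgeR quasi-likelihood test, Benjamini-Hochberg adjusted p = 0.0134), so its Poly(I:C) difference was larger with MSDC, 2.89 against 1.79 in vehicle. It stands out because the difference between the 2 responses itself passed the threshold, which was so for 26 of 11621 tested genes. Its levels after Poly(I:C) were close, -0.11 on the log2 scale for MSDC against vehicle (SE 0.11, adjusted p = 0.546), while without Poly(I:C) it was lower with MSDC by -1.21 (SE 0.14, adjusted p = 4.96e-06). The call was lost by limma on log2(TPM + 1) (adjusted p = 0.104) and log2(TPM + 0.1) (adjusted p = 0.131), and without MSDC replicate 1 (0.125), Poly(I:C) with vehicle replicate 1 (0.0582) or Poly(I:C) with MSDC replicate 1 (0.134) or 2 (0.0956). The cause was not tested.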

How the results depend on the processing

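Of 296 values of the 4 tested chemokines under alternatives, 287 kept their direction where called and their side of the threshold, 5 became called and 4 lost a call. Cxcl16 stayed called lower with MSDC in every alternative run, between -2.73 and -2.32 with Poly(I:C) and between -2.48 and -1.79 without it. Cxcl10 without Poly(I:C) had no stable value, with -2.28 without MSDC replicate 2 and 1.24 without MSDC replicate 1, and its interaction lay between -1.04 and 2.46 over the same fits. The chemokines called for Poly(I:C) in MSDC numbered 4 without the low-count filter, and 1 to 2 when 1 library was left out. Over all tested genes, the 734 calls for Poly(I:C) in MSDC became 1182 with only those 2 groups fitted and 414 to 1094 when 1 library was left out, and the 1351 for Poly(I:C) in vehicle became 864 to 1582, the lowest without Poly(I:C) with vehicle replicate 1. The 26 interaction calls became 48 by DESeq2, 116 without the filter, 5 by limma on log2(TPM + 0.1), and 5 to 89 when 1 library was left out, the extremes coming without MSDC replicate 1 and without vehicle replicate 2. With library totals in place of TMM, Poly(I:C) in vehicle gave 729 higher and 867 lower calls (45.7% higher) in place of 874 and 477 (64.7%), and the interaction 77.8% in place of 53.8%. The cause was not tested. Same-numbered replicates did not deviate together (r of -0.0305 to 0.0717 over genes). This cannot show whether they were paired, since a small shared effect could go unseen. With a replicate block the calls were 692 and 1300 for Poly(I:C) in MSDC and in vehicle. They were 2941 and 2620 for MSDC with and without Poly(I:C), and 24 for the interaction. The number of chemokines called in each comparison was unchanged. Depth limits Cxcl1 and, without Poly(I:C), Cxcl9 and Cxcl10, which had 1 to 13 counts per library there. When a left-out library leaves a group with 1 sample, that sample is assumed to vary like the other groups.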

Other observations

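Of the tested genes within 100 kb of both Cxcl9 and Cxcl10, Ppef2 was called lower with MSDC, by -1.58 with Poly(I:C) and -2.15 without it (edgeR quasi-likelihood test, Benjamini-Hochberg adjusted p = 0.000819 and 5.5e-05). Naaa, a lysosomal amidase, was also called lower, by -1.29 and -1.47 (edgeR adjusted p = 1.72e-10 and 4.42e-11). Scarb2, a lysosomal membrane protein within 100 kb of Cxcl10 but not of Cxcl9, was called higher, by 0.72 and 0.75 (adjusted p = 2.03e-07 and 1.46e-07). Neither Cxcl9 nor Cxcl10 was called for MSDC. Sdad1 and Nup54 in the same stretch were not called in any of the 5 comparisons.

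Within 100 kb of Cxcl16 on chromosome 11, the tested genes Pelp1, Arrb2 and Pld2 were not called in any of the 5 comparisons. Med11 was called lower with MSDC in the presence of Poly(I:C) by -0.33 (edgeR adjusted p = 0.0485), a difference far smaller than the -2.71 of Cxcl16. Psmb6, a proteasome subunit, was called higher with MSDC without Poly(I:C) by 0.32 (adjusted p = 0.00314). Mthfd2l, the tested non-chemokine neighbour of Cxcl1 and Cxcl2, was not called in any of the 5 comparisons.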
